A study of Bos taurus with 3 samples.

Results

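The cluster of bta-miR-183, bta-miR-96 and bta-miR-182 was nearly undetected in small RNA of large dense-core vesicles, which were purified from chromaffin cells of cattle. Its 3 members, named without the prefix below, were taken from the deposited count table by name (species prefix, accession and arm removed), and they are 3 of the 793 mature miRNAs annotated there. Chromaffin cells secrete adrenaline and noradrenaline from the inner part of the adrenal gland, and keep these hormones, with peptides, in such vesicles until release. Adrenal medulla came from cattle of a local slaughterhouse, and the labels give no breed, age, sex, genotype or treatment. The 3 libraries, made from 500 ng of total RNA each, comprised a technical pair (2 libraries) and 1 biological replicate by their titles. At which step the pair was split, and how many animals gave each preparation, is left unsaid by the labels. No library of whole cells was analysed here, so a level here cannot be set against that of the cell, and a miRNA found here need not lie within a vesicle.

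The 3 miRNAs are known to be cut from hairpins that lie close together in vertebrate genomes and are transcribed in the same direction as a common precursor. They are known above all from sensory cells: they are abundant in photoreceptors, in the hair cells of the inner ear and in sensory ganglia, and changes in the seed of miR-96 cause inherited hearing loss. The seed is the short stretch near the 5′ end through which a miRNA pairs with its targets. The seeds of miR-96 and miR-182 are closely alike, and miR-1271, encoded elsewhere, is known to carry the seed of miR-96. In RefSeq's annotation of the cattle assembly ARS-UCD2.0, MIR182, MIR96 and MIR183 are neighbours in this order with no other annotated gene between them, and NRF1, which encodes a transcription factor of mitochondrial and housekeeping genes, precedes MIR182. MIR1271 stands between ARL10 and NOP16. The submitters' processing notes name another assembly, UMD3.1, so no positions are given. Each of the 3 hairpins had 1 mature miRNA in the table, as had 701 of its 808 hairpins, so the other arms were not analysed here.

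Total counts, with each annotated mature miRNA taken once, were 5546771 in technical library 1, 6251664 in technical library 2 and 6708654 in the biological library (the libraries labelled technical replicate 1 and 2 and biological replicate 1). Names with identical counts, such as miR-199a-3p and miR-199c, were each kept in these totals and in the test. A single count equalled 0.180, 0.160 and 0.149 CPM, counts scaled to the same total for each library, in the same order. A count of 0 allows up to 3 counts, or 0.541, 0.480 and 0.447 CPM. This is an approximate 1-sided 95% limit, whereas the intervals of nonzero counts below are 2-sided. These limits, and all intervals below, cover counting error only. The endocrine miRNAs miR-375 and miR-7 marked the labelled cell type, and together held between 428375 and 473000 CPM. Among markers of other cells, 6 of 7 miRNAs of smooth muscle and fibroblasts (miR-199a-3p and miR-199c with identical counts), both arms of the endothelial miR-126 and 2 of 5 tested leukocyte miRNAs were lower in the biological library, against 20.2% of all miRNAs tested. Of the striated muscle and erythrocyte markers tested, 2 of 4 and 1 of 2 were higher, against 17.7% of all. The muscle calls were miR-499 and miR-1, while miR-133a (log2 fold change 0.11) and miR-133b (-0.32) did not pass. The erythrocyte call was miR-486 (0.53), while miR-451 (-0.19) did not pass. Whether other cell types contributed the counts of the cluster was not tested. In such bulk RNA, fewer cells of a type and less of a miRNA per cell cannot be told apart.

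miR-182 was the most abundant member and the only one measured above the limit set by a count of 0 in every library. miR-182 (MIMAT0009244) had 8 counts in technical library 1, 15 in technical library 2 and 14 in the biological library. These counts correspond to 1.44 CPM (exact Poisson 95% interval 0.623 to 2.84), 2.40 CPM (1.34 to 3.96) and 2.09 CPM (1.14 to 3.50). The lowest and the highest library were the technical pair, the biological library lay between them, and all 3 intervals overlapped. The mean was 2.004 CPM ± 0.117 (SD, n = 2 preparations, with the technical pair averaged). The technical libraries lay further apart than that SD. miR-182 stood at place 346 of 793 by mean level. For each count of miR-182 there were between 149239 and 264440 counts of miR-375, the most abundant miRNA of these libraries.

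miR-183 was at the edge of detection. miR-183 (MIMAT0009245) had 1 count in technical library 1, 2 in technical library 2 and 3 in the biological library, or 0.180 CPM (exact Poisson 95% interval 0.00456 to 1.00), 0.320 CPM (0.0387 to 1.16) and 0.447 CPM (0.0922 to 1.31). No library exceeded the 3 counts that a count of 0 allows, and the intervals overlapped almost wholly. The mean of 0.349 CPM ± 0.139 (SD, n = 2) placed miR-183 at 426 of 793.

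miR-96 was not detected. miR-96 (MIMAT0009388), the member known for inherited hearing loss, had 0 counts in technical library 1, 0 in technical library 2 and 0 in the biological library. The limit for miR-96 is therefore the 0.541, 0.480 and 0.447 CPM given above, and lower levels could not be seen at this depth. miR-96 shared this result with 266 other annotated miRNAs, since 267 of 793 (33.7%) had no count in any library. A further 101 miRNAs had between 1 and 6 counts over the 3 libraries, the range that holds miR-183.

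**Figure D1:**
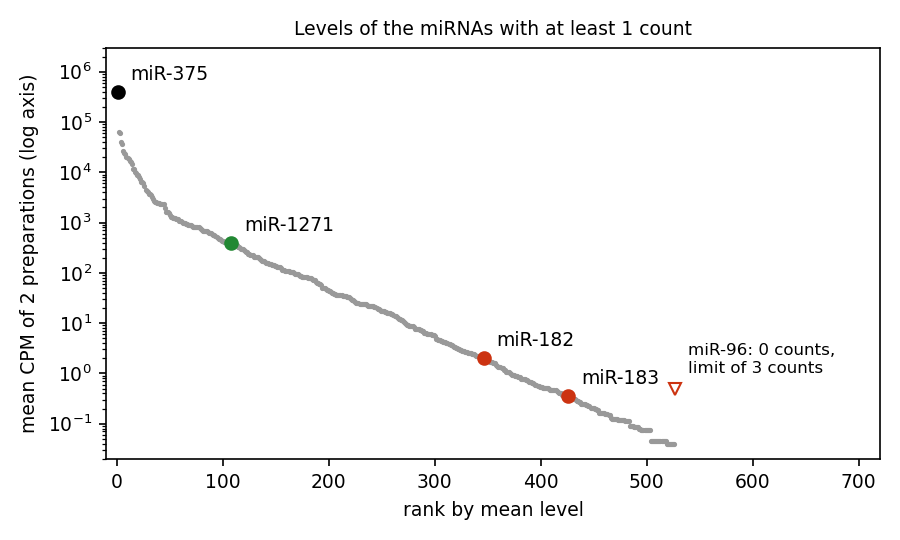
Mean CPM of the 2 preparations (vertical log axis) against rank for the miRNAs with at least 1 count (grey points), with the cluster members in red, miR-1271 in green and miR-375 in black. miR-182 lies at 2.004 CPM and miR-183 at 0.349 CPM, in the lower range of the detected miRNAs, and miR-96 is drawn as an open triangle at the mean limit of 3 counts because it had 0 counts.

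**Figure D2:**
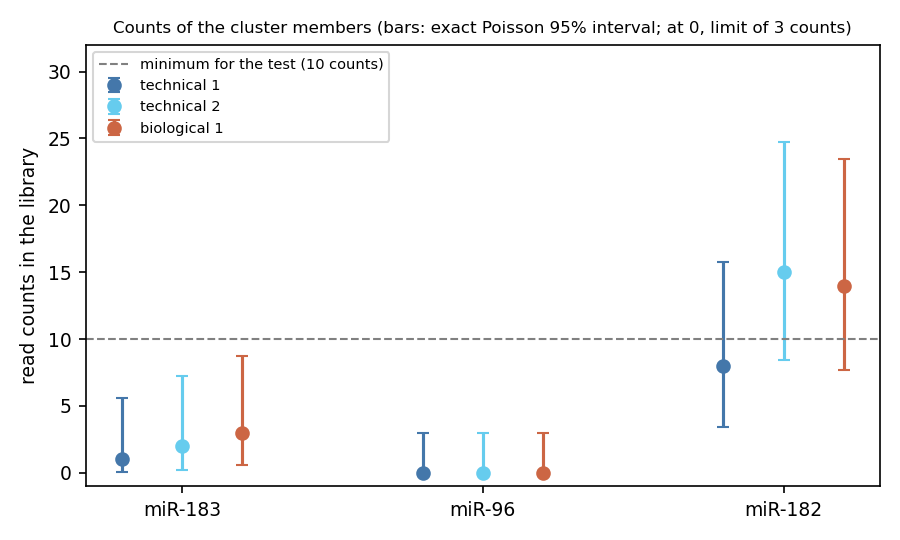
Read counts of the 3 members (horizontal axis) in each library, with exact Poisson 95% intervals as bars (for a count of 0, up to the 1-sided limit of 3 counts) and the 10 counts needed for the test as a dashed line. miR-182 passes the line in technical library 2 and the biological library, with 15 and 14 counts, while miR-183 stays between 1 and 3 and miR-96 at 0.

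Within the cluster, most of the few reads were of miR-182. The 3 members together had 9 counts in technical library 1, 17 in technical library 2 and 17 in the biological library. miR-182 made up 88.9% (exact Clopper-Pearson 95% interval 51.8 to 99.7%), 88.2% (63.6 to 98.5%) and 82.4% (56.6 to 96.2%) of them. The order of the 3 members was thus the same in every library, and the shares of miR-182 differed by less than their intervals. Over all libraries miR-182 had 37 of 43 counts, or 86.0% (72.1 to 94.7%), and miR-183 had 6, or 14.0% (5.30 to 27.9%). The ratio of miR-182 to miR-183 was 6.17 over all libraries, with an exact 95% counting interval of 2.58 to 17.9. It was 8.0 (1.07 to 355), 7.50 (1.74 to 67.6) and 4.67 (1.30 to 25.3) in technical libraries 1 and 2 and the biological library, so the lower bound lay above 1 in each. For miR-183 over miR-96 no such ratio was computed, because miR-96 had 0 counts. The pooled share of miR-96 was 0%, with an approximate 1-sided upper limit of 6.98% (3 of 43 counts). That of miR-183 was 14.0%, with a 2-sided interval of 5.30 to 27.9%. Whether miR-183 and miR-96 differ in level was not tested. How evenly the 3 miRNAs are captured by library preparation was not tested.

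The comparison of the biological library with the technical pair shows how far a second preparation repeats the first. Only 1 of the 3 members, miR-182, had the 10 counts in a library that the test required. It did not pass, with a log2 fold change of 0.28 ± 0.40 (SE) and an adjusted p of 0.73 (edgeR's quasi-likelihood test, Benjamini-Hochberg adjustment over all miRNAs tested). This SE was back-calculated from the test statistic and is no measure of counting error, whose limits are given below. In the same fit 37.9% of the 367 miRNAs tested passed (139), of which 65 were higher (17.7%) and 74 lower (20.2%) in the biological library. Scaled by library totals, 24 were higher and 86 lower. The spread in this fit came from the technical pair alone, so its p-values do not speak of animals. The direction for miR-182 was not stable when scaled by library totals, where the fit gave 0.10 rather than 0.28. On that scale the log2 ratio of CPM was -0.20 against technical library 2 alone (technical library 1 left out). Against technical library 1 alone it was 0.53. Single libraries were not compared with the scaling of the main fit.

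Counting error alone left wide limits for both detected members. The CPM of miR-182 in the biological library was 1.07 times that of the pooled technical pair, with an exact 95% counting interval of 0.509 to 2.17, so changes within these bounds could not be seen at this depth. Between the technical libraries the ratio for miR-182 was 1.66 (0.662 to 4.53), larger than either ratio of the biological library to one of them, 1.45 (0.566 to 3.98) and 0.870 (0.389 to 1.93). For miR-183 the ratio of the biological library to the pooled pair was 1.76 with an interval of 0.236 to 13.1, and no level of miR-183 can be ordered between libraries. miR-96, at 0 in every library, gave no ratio. Among the 52 tested miRNAs with 21 to 73 counts in all, a range around the 37 of miR-182 that was chosen after its values were seen, 8 passed (15.4%). The smallest log2 fold change that passed among these 8 was 1.14 in size, so a difference as small as that of miR-182 passed for none of the 52.

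**Figure D3:**
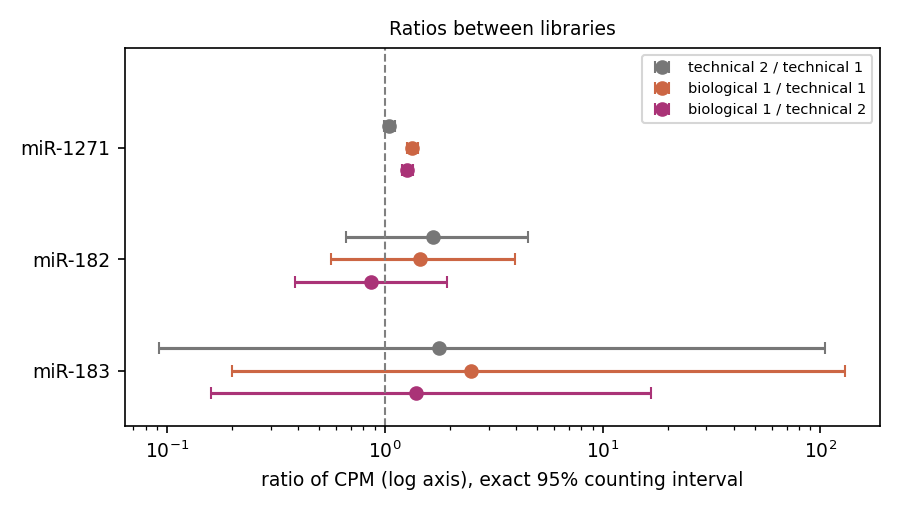
Ratio of CPM between pairs of libraries (horizontal log axis) for miR-183, miR-182 and the seed relative miR-1271, with exact 95% counting intervals as bars and a dashed line at 1. All intervals of miR-182 and miR-183 include 1, whereas those of miR-1271 for the biological library, 1.34 and 1.27, do not.

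miR-1271, known to share the seed of miR-96, was far more abundant than the cluster. That sharing is background knowledge, and the cattle sequences were not checked here. miR-1271 (MIMAT0009975) had 1837, 2179 and 2972 counts in technical libraries 1 and 2 and the biological library, or 331, 349 and 443 CPM. Its mean of 391 CPM ± 72.9 (SD, n = 2) placed it at 108 of 793, and the biological library lay above both technical libraries. Divided by the limit of 3 counts per library for miR-96, the counts of miR-1271 gave ratios of 612, 726 and 991 in the same order. These are approximate lower bounds that leave out the counting error of miR-1271. miR-1271 was 230 times miR-182 in technical library 1 (exact 95% counting interval 116 to 533), 145.3 times in technical library 2 (87.9 to 260.0) and 212.3 times in the biological library (126 to 389). These intervals overlapped, so the ratio of miR-1271 to miR-182 could not be told apart between libraries. miR-1271 rose in the biological library, with a log2 fold change of 0.56 ± 0.10 (SE back-calculated from the test statistic) and an adjusted p of 3.3e-07 (edgeR's quasi-likelihood test). When scaled by library totals, without TMM, the change was 0.38, since TMM moved the median of all miRNAs from -0.17 to 0.01. The adjusted p (edgeR) was then 0.035, and with summed hairpin rows it was 0.0016 at a change of 0.57. Why these p-values differ so much from that of the main fit was not tested. The log2 fold changes of miR-1271 and miR-182 were not tested against each other.

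The miRNAs most like miR-182 in level were miR-219, miR-2339 and miR-196b, by Euclidean distance of log2(CPM + 1) over the 3 libraries. miR-219 had 9, 14 and 10 counts in technical libraries 1 and 2 and the biological library, at a distance of 0.33. miR-2339 had 11, 16 and 17 counts (0.35), and miR-196b had 8, 11 and 11 (0.38). The distances are of the size that a few counts make, so these miRNAs describe the level of miR-182 and no more. Nearest to miR-183, with miRNAs under 10 counts allowed, was miR-2320-3p with 1, 2 and 4 counts, followed by miR-2284f and miR-105b. For miR-96 the 266 other miRNAs at 0 were equally near.

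miRNAs known alongside the cluster from retina, inner ear and other sensory epithelia were present at very different levels. This list of 14 names matched 17 mature miRNAs, of which 13 had enough counts for the test. Of these, 3 were higher and 2 lower in the biological library and 8 did not pass. The share that passed, 38.5%, was near the 37.9% of all miRNAs tested, and the median log2 fold change was -0.10 against 0.01. The summed level of these 17 miRNAs lay between 1497 and 1567 CPM. The 3 members of the cluster summed to 1.62, 2.72 and 2.53 CPM in technical libraries 1 and 2 and the biological library. The sums cover unlike numbers of miRNAs. The 4 most abundant were miR-9-5p (a mean of 564 CPM), miR-181a (390.2 CPM), miR-30b-5p (302 CPM) and miR-9-3p (146 CPM). The hairpin of miR-9 is known for neural expression. miR-9-5p and miR-9-3p rose, with log2 fold changes of 0.41 and 0.89, miR-30b-5p fell by 0.48 on the log2 scale, and miR-181a, at -0.10, did not pass. The other calls were miR-200c, at 0.52, and miR-204, a miRNA of the retinal pigment epithelium, at -0.52. With library totals miR-9-3p was the only one of the list higher, and in DESeq2 neither miR-200c nor miR-204 passed. miR-204 also did not pass with summed hairpin rows. Near the 2.004 CPM of miR-182 stood miR-200b (2.61 CPM), miR-124a and miR-124b (1.97 CPM each, with identical counts in every library) and miR-141 (1.73 CPM), named for this after their values were seen. Lower were miR-184, known from cornea and lens, with 5, 3 and 3 counts, and miR-211, related to miR-204, with 2, 2 and 1. miR-429 was at 0 in every library, as miR-96 was.

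The cluster was also set beside 13 other groups of miRNAs whose hairpins are known to lie close together. Each name was represented by its most abundant arm or lettered form, such as miR-16a for miR-16. Levels are of mature miRNAs and were not split between hairpins. miR-24-3p thus stands with the same 6137 CPM in both the miR-23a/27a/24 and the miR-23b/27b/24 group. By the summed mean level the miR-183 cluster was the lowest of these 14, at 2.35 CPM, and the next was the epithelial miR-200b, miR-200a and miR-429 cluster at 2.88 CPM. Over the 3 libraries these lowest 2 held 43 and 51 counts, a ratio of 0.843 with an exact 95% counting interval of 0.549 to 1.29 that includes 1. Their order changed between libraries: the ratio was 0.409 (0.166 to 0.924) in technical library 1, 2.125 (0.869 to 5.69) in technical library 2 and 0.810 (0.401 to 1.61) in the biological library. The same pair was also alike in having a member at 0 in every library, and in every other group all members were detected. miR-182 stood 5.75 times above miR-183 by mean CPM. In the other groups the detected members lay between 1.02-fold apart, for miR-192 and miR-194, and 5928-fold apart, for miR-143 and miR-145. miR-145 had 37 counts in all, as many as miR-182. The distance between miR-182 and miR-183 lay within this range, which is so wide that almost any distance would. miR-96, at 0, was left out of the distance.

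**Figure D4:**
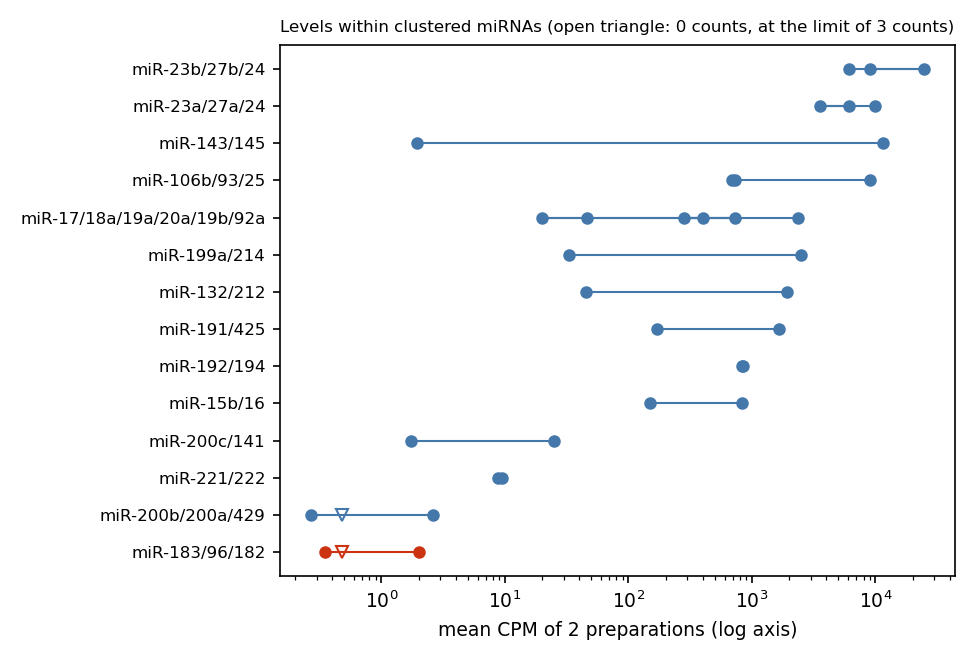
Mean CPM of the 2 preparations (horizontal log axis) for the members of 14 groups of neighbouring miRNAs, ordered by summed level, with the miR-183 cluster in red and a line joining detected members. The miR-183 cluster lies lowest, at 2.35 CPM in all, and open triangles mark miR-96 and miR-429, which had 0 counts, at the mean limit of 3 counts.

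The epithelial list, which holds miR-200a, miR-200b, miR-200c, miR-141, miR-429 and miR-205, was low as well. Its summed level was 28.8 CPM in technical library 1, 24.2 CPM in technical library 2 and 32.2 CPM in the biological library, most of it miR-200c with a mean of 24.7 CPM. Of its 6 miRNAs, miR-429 and miR-205 were at 0 in every library, and 1 of 3 tested, miR-200c, was higher and none lower in the biological library, against 17.7% and 20.2% of all miRNAs tested. The call of miR-200c was lost with library totals (edgeR, adjusted p = 0.13) and in DESeq2 (adjusted p = 0.34). Technical library 1 was the lowest for the cluster, and technical library 2 was the lowest for the epithelial list.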

How the data were processed

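Read counts per mature miRNA and hairpin (919 rows) were deposited by the authors together with CPM that the authors computed over all rows, and with log2 CPM values by the authors for 459 rows, which include miR-182 but neither miR-183 nor miR-96. Per the submitters' processing notes, which name tools without their role, the build was UMD3.1 and edgeR was among the tools. The aligner and counting tool were not given in the sources.

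Where a mature miRNA had several hairpin rows, the row of highest count stood for it, and CPM were recomputed from these totals. The members have 1 row each. The fit used edgeR 4.0.16 in R 4.3.3 (TMM scaling, quasi-likelihood test, 1 residual degree of freedom) on miRNAs that reached 10 counts in any library, with adjusted p below 0.05 as the threshold, and was tested on simulated data. Whether the samples came from separate animals is not stated. The p-values set the biological library against a spread that came from the technical pair alone. They do not measure the spread between preparations or animals. In the main fit the spread of the technical pair was pooled over miRNAs (infinite prior degrees of freedom), so no miRNA had its own. The p-values and the 139 calls of the main fit rest on that pooling. The alternatives were library totals, DESeq2 1.42.0, other count filters, summed hairpin rows, the authors' log2 values, another pseudocount and single libraries left out.

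The members and lists were chosen with earlier results of these data known. Named miRNAs were the members, the 3 nearest to each in level, the known seed relative, the 4 most abundant of the sensory list and the groups of neighbours with the widest and narrowest range. Others were named after their values were seen. The alternatives for miR-1271 and for the sensory list were chosen after seeing the data.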

Additional observations from a re-analysis of the deposited data

How the results depend on the processing

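At totals of 5546771 to 6708654 counts, depth limited every statement on miR-183 and miR-96. The mean level of miR-182 became 1.52 CPM both with the authors' CPM over all rows and with summed hairpin rows, because miRNAs with several hairpins then enlarge the total, and ranged from 1.76 to 2.24 CPM without 1 library. Its log2 fold change was between 0.10 and 0.30 in the other fits (edgeR, adjusted p from 0.71 to 0.90; DESeq2 gave no adjusted p) and 0.18 in the authors' log2 values. In CPM without TMM, where the fit gave 0.10, it was -0.20 without technical replicate 1 and 0.53 without technical replicate 2, both with no test. For miR-183 the log2 ratio of CPM, without TMM, was 0.84, and 0.48 and 1.31 with technical replicate 1 or 2 left out. Without a count filter edgeR, with TMM, gave 0.91 (adjusted p = 0.80). The share of miR-182 in the cluster ranged from 84.6 to 88.5% without 1 library. The 139 calls over all miRNAs became 84 in DESeq2 and 70 when only the 167 miRNAs of at least 100 CPM were tested, which leaves out the cluster. With library totals 24 were higher and 86 lower. miR-1271 passed in all 5 other fits, with log2 fold changes of 0.38 to 0.57. With library totals the sensory list had 1 higher and 2 lower of 13 tested, against 24 and 86 of all 367. In DESeq2 it had 2 higher and 1 lower of 13, against 42 and 42 of 367 (57 of these without an adjusted p). With the filter at 100 CPM it had 2 higher and 1 lower of only 4 tested, against 26 and 44 of 167. Summed hairpin rows gave 3 higher and 1 lower of 13, against 59 and 69 of 370. The 3 miRNAs nearest to miR-182 were the same with a pseudocount of 0.1 CPM and without a filter. No leave-one-out test of the calls was possible because the remaining 2 libraries leave no residual degree of freedom. No paired analysis was possible because the labels name no pairs of libraries across the groups.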
